A study of Mus musculus with 15 samples.

Results

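The 7 genes described here act as brakes on cell division and were followed through single cells of mouse Sonic hedgehog (SHH) medulloblastoma and of normal cerebellum. Of the 27803 genes listed in the deposited tables, the 7 members were taken by name: the Cip/Kip inhibitors of cyclin-dependent kinases Cdkn1a (p21Cip1), Cdkn1b (p27Kip1) and Cdkn1c (p57Kip2), the Ink4 inhibitors Cdkn2c (p18Ink4c) and Cdkn2d (p19Ink4d), and the antiproliferative genes Btg1 and Btg2. The rule is a list of names and uses no threshold on a measured value, and all 7 were listed in all 15 tables. Neither they nor their relatives took part in the clustering or in the naming of the cells. In GRCm38 the genes lie at chr17:29090976-29100727 (Cdkn1a, plus strand), chr6:134920401-134925513 (Cdkn1b, plus), chr7:143458339-143461050 (Cdkn1c, minus), chr4:109660876-109667189 (Cdkn2c, minus), chr9:21288410-21291407 (Cdkn2d, minus), chr10:96617006-96622809 (Btg1, plus) and chr1:134075170-134079120 (Btg2, minus).

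The series compared 3 groups of 5 C57BL/6 mice, 1 Drop-seq library per animal. WT animals gave untreated postnatal day 7 (P7) cerebella. The 2 tumor groups carried the genotype Math1-Cre:SmoM2/EYFPloxP/loxP (M-Smo), in which Cre driven by Math1 (Atoh1), a gene of granule neuron progenitors, switches on an active form of the SHH receptor component Smo. They received 3 daily doses of vehicle, or of vismodegib at 75 mg/kg, from P12 to P14. Tumors were taken at P15. Vismodegib blocks Smo. WT animals had no injections, and their cells were run on another microfluidic device than tumor cells, without the human cells that were added to the tumor libraries. Age, genotype, injection, device and that addition therefore cannot be told apart between vehicle-treated tumors and WT cerebella. The vehicle-treated tumors serve in both comparisons, vehicle against WT and vismodegib against vehicle, which are not independent of each other.

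Cip/Kip proteins bind cyclin-CDK complexes in several phases of the cell cycle, and Ink4 proteins bind Cdk4 and Cdk6 and keep them from the D cyclins. Btg proteins are small adaptors that recruit the Ccr4-Not deadenylase to messenger RNA, and Btg2 is also an immediate early gene, switched on within minutes by growth factors, stress or depolarization. Cerebellar granule neuron progenitors divide in response to SHH and then leave the cell cycle and migrate. Loss of Cdkn1b or of Cdkn2c is known to speed SHH-driven medulloblastoma in mice, and Btg2 and Cdkn2d have known roles in the exit of progenitors from the cycle.

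After the filters, 37946 cells of 51841 barcodes remained, 7224 from WT, 18293 from vehicle-treated and 12429 from vismodegib-treated animals, with 2310474 to 17708677 unique molecular identifiers (UMIs, each counting 1 captured transcript) per animal. Clusters were named by fixed markers. The granule lineage fell into 4 stages. Node A-like cells carry S to M phase genes, Node B-like cells are progenitors in G1 to early S phase with SHH target genes, and Node C-like and Node D-like cells are in earlier and later differentiation. Each name's own markers had their highest mean in the stage of that name in all 3 groups. The 12 Node A markers summed to means of 8437 to 10794 counts per 1000000 UMIs (CPM) in Node A-like cells of the 3 groups, against 2596 to 3643 CPM in Node B-like cells. The Node B markers summed to 1965 to 4597 CPM in Node B-like cells and to 1628 to 3940 CPM in Node A-like cells, the Node C markers to 15305 to 16599 CPM in Node C-like cells and at most 13293 CPM in Node D-like cells, and the Node D markers to 4099 to 5201 CPM in Node D-like cells and at most 2293 CPM in Node C-like cells. No 2 of the 15 libraries shared more than 6 cell barcodes. The level of a gene is its CPM after summing the UMIs of 1 class in 1 animal, so that an animal is 1 replicate. Levels are compared within a gene and not between genes. Values per animal are given in the order of the replicate numbers. A gene was called at an adjusted p (edgeR quasi-likelihood test, Benjamini-Hochberg over all genes tested in the class) under 0.05. Median UMIs per cell differed between stages and animals, for example 2163 to 4846 in vehicle Node A-like and 857 to 1830.5 in vehicle Node D-like cells.

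The promoters of both Btg genes are shown first because Btg2 gave the most widespread difference of the 7 genes and is a classical immediate early gene, a class often driven through the cyclic AMP response element TGACGTCA. Both windows run from 250 bases before to 50 after the annotated start (RefSeq, GRCm38.p6) and are printed 5′ to 3′ along the gene, Btg2 from the minus strand of chr1:134079106-134079405 and Btg1 from the plus strand of chr10:96616751-96617050. Capitals mark TGACGTCA in Btg2, and in Btg1 the bases CGTCA, which are TGACG read on the other strand.
Btg2: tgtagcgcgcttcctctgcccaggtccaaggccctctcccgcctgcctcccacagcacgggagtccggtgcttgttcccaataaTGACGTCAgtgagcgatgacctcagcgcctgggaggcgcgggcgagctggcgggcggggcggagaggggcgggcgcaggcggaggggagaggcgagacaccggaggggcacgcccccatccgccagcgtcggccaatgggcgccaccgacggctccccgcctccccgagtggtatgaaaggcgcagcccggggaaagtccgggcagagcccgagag
Btg1: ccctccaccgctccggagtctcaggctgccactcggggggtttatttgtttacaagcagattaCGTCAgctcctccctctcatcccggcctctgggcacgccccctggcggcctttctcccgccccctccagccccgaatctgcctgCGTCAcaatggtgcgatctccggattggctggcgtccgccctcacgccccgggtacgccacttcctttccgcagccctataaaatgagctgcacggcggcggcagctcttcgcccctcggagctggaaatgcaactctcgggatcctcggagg
The full element began 166 bases before the start of Btg2 and stood in 1.79% of 32851 windows of the same length. Its shorter form TGACG, on either strand, stood in 20.8% of windows. It occurred in 2 places in Btg1, 187 and 103 bases before the start, and in 1 place in Cdkn1b, 22 bases after the start. It was not in the windows of Cdkn2c, Cdkn2d and Cdkn1a. The full element holds 2 overlapping copies of the shorter form. Other words searched on both strands were GGGCGG (35.7% of all windows), CCAAT (37.4%), TTTGGCGC (0.514%) and TTTCCCGC (1.07%), of which the last 2, forms of the E2F site, were in none of the windows of the 6 members that had one; Cdkn1c had none. Such matches describe letters and not binding.

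Cdkn1b, the Kip inhibitor that is also controlled at the level of protein turnover, was called in no comparison under the main settings. At clustering resolution 1.2 it was called lower with vehicle than in WT in Node B (log2 -0.47, adjusted p = 0.015). It had its lowest stage in Node B-like progenitors and its highest in differentiating Node C-like cells in each group. Node D was above Node A in mean with vehicle (502 ± 121 against 432 ± 38.1 CPM) and below it in WT (381 ± 96.2 against 455 ± 54.4 CPM) and with vismodegib (447 ± 49 against 484 ± 83.1 CPM), with overlap in each. In Node B-like cells it stood at 324, 285, 295, 386 and 365 CPM in WT, at 296, 318, 305, 324 and 338 CPM in vehicle-treated and at 310, 265, 321, 285 and 312 CPM in vismodegib-treated animals. In Node C-like cells the values were 562, 447, 458, 491 and 464 CPM in WT, 460, 573, 516, 679 and 638 CPM with vehicle and 507, 438, 550, 617 and 751 CPM with vismodegib. The ranges of Node B and Node C did not overlap in any group, and the means stood 1.46-fold (WT), 1.81-fold (vehicle) and 1.92-fold (vismodegib) apart. Node A-like cells were above Node B-like cells too, with ranges apart in both tumor groups (vehicle 432 ± 38.1 against 316 ± 16.4 CPM, vismodegib 484 ± 83.1 against 299 ± 23.1 CPM; SD, n = 5) and overlapping in WT (455 ± 54.4 against 331 ± 43.9 CPM). Outside the granule lineage its level was lower: GABAergic-like cells, found in WT, held 309 ± 46.1 CPM, next to the granule stages in rank, and the next class, astrocyte-like cells, 181 ± 32.8 CPM without overlap. In both tumor groups the glial and vascular means, at most 268 CPM, were below all 4 stages.

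**Figure D1:**
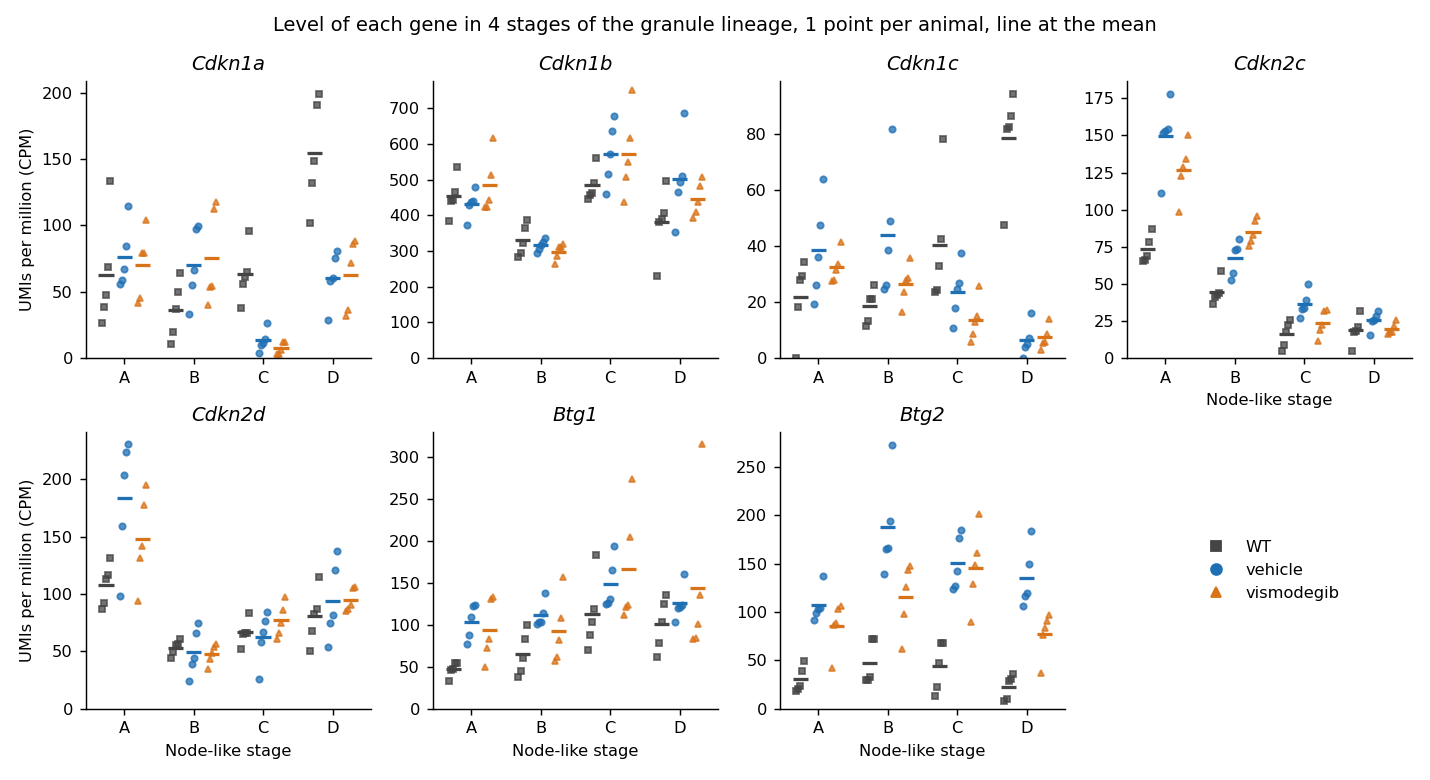
Level (CPM of summed UMIs, vertical axes) of each of the 7 genes in Node A-like to Node D-like cells (horizontal axes); each point is 1 animal, and lines mark the mean of 5 WT, 5 vehicle-treated or 5 vismodegib-treated animals. Cdkn1b has the same dip at Node B in all groups, Cdkn2c falls off from Node A, and Btg2 of vehicle-treated tumors lies above WT.

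Cdkn1a, a p53-responsive member, had the largest step between neighbouring stages and set tumors apart from WT late in the lineage. In Node C-like cells it stood at 38.0, 55.9, 61.4, 64.9 and 95.4 CPM in WT, at 26.8, 14.8, 3.94, 10.2 and 11.7 CPM in vehicle-treated tumors and at 2.86, 6.41, 3.20, 12.4 and 12.1 CPM in vismodegib-treated tumors. Every tumor was below every WT cerebellum. Against WT, vehicle-treated tumors were lower by 2.36 on the log2 scale (SE 0.34, 5.13-fold, adjusted p = 2.24e-05). None of the 19 alternatives in which it could be tested lost this call, with log2 fold changes from -2.57 to -1.37. In the other alternatives run it could not be tested. Cdkn1a passed the filter on low counts here through its WT values, so being tested and being lower with vehicle were tied. These values rest on few molecules, 2 to 17 UMIs per vehicle-treated tumor. In Node D-like cells WT held 102, 190, 199, 132 and 148 CPM, vehicle-treated tumors 75.6, 57.8, 28.4, 60.5 and 80.4 CPM, and vismodegib-treated tumors 36.4, 31.7, 71.5, 85.8 and 88.2 CPM. WT and vehicle again did not overlap (log2 fold change -1.39, SE 0.25, 2.62-fold, adjusted p = 0.000201). With hemoglobin genes kept in the clustering the difference was -0.43 and not called (adjusted p = 0.28). Within each group Cdkn1a was higher in Node D than in Node C without overlap, by 2.44-fold in WT, 4.49-fold with vehicle and 8.48-fold with vismodegib. In tumors, but not in WT, Node C was also below Node B without overlap, at 0.19 times its level with vehicle and 0.0979 times with vismodegib. As log2(CPM + 10), the step from B to C was -1.76 in vehicle-treated tumors and 0.76 in WT. The difference of -2.53 did not pass (exact permutation test, p = 0.0079, adjusted p = 0.056 over 21 steps, a test added after seeing the data). In Node A-like and Node B-like cells Cdkn1a was not called (vehicle against WT 0.24 and 0.77 on the log2 scale). In Node B it was called higher with no filter (0.98, adjusted p = 0.00034). The same held there without WT replicate 3 (1.15, adjusted p = 0.027) or vehicle replicate 3 (0.95, adjusted p = 0.038). In Node A it was called without WT replicate 5 (0.77, adjusted p = 0.045). A gene on the other strand overlaps Cdkn1a, and whether strand was used in counting is not stated, so reads of the pair may not be told apart.

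The late tumor cells were not uniform in Cdkn1a. The small Node D-like tumor cluster led by Gabra6 and Cbln3, genes of mature granule neurons, made up 5.09% of Node D-like cells with vehicle and 4.26% with vismodegib, and held 292 CPM of Cdkn1a over all its tumor cells. Of Node D-like cells with vehicle, 38.1% lay in the cluster led by Ephb1 (41.7 CPM) and 25.9% in that led by Sez6 (73.2 CPM). A further 24.6% lay in that led by Epb4.1l1 (29.5 CPM) and 6.36% in that led by Calb2 and Pcp4 (90.7 CPM). In WT all Node D-like cells lay in the cluster led by Calb2, Camk4 and Grp (142 CPM). The part of this make-up in the Node D difference was not tested. Both Node C-like tumor clusters were low, at 10.7 CPM (led by Pnoc and Cntn2) and 12.3 CPM (led by Pdzrn3). Cells of a cluster share libraries, so these are descriptions without a test.

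Cdkn1c, an imprinted Kip gene expressed from the maternal copy, ran in opposite directions along the lineage in WT and tumors. In Node D-like cells it stood at 81.6, 82.6, 94.2, 47.5 and 86.5 CPM in WT, at 0, 16.0, 5.16, 7.11 and 3.83 CPM in vehicle-treated and at 14.1, 5.46, 8.72, 5.64 and 2.89 CPM in vismodegib-treated tumors. The lowest WT cerebellum was above the highest tumor, and vehicle against WT gave a log2 fold change of -3.55 (SE 0.40, 11.7-fold lower, adjusted p = 7.6e-07), on 0 to 8 UMIs per vehicle-treated tumor against 9 to 32 per WT cerebellum. None of the 18 alternatives in which it could be tested lost the call, and in the others run it could not be tested. Cdkn1c passed the filter on low counts here through its WT values alone, so being tested and being lower with vehicle were tied. From Node B to Node D the level was 4.21 times as high in WT, and 0.15 times with vehicle and 0.28 times with vismodegib, all without overlap of ranges. In Node B-like cells the order was the reverse: WT held 21.3, 21.3, 11.3, 26.1 and 13.3 CPM and vehicle-treated tumors 38.5, 81.8, 24.6, 26.0 and 49.0 CPM, which overlapped. That rise of 1.03 on the log2 scale (SE 0.35, adjusted p = 0.0295) was lost without WT replicate 3 (0.92, adjusted p = 0.074), WT replicate 5 (0.97, adjusted p = 0.058) or vehicle replicate 2 (0.69, adjusted p = 0.089), and when tumors and WT were clustered together (2.23, adjusted p = 0.33). In Node C-like cells Cdkn1c was 0.93 lower on the log2 scale and not called (adjusted p = 0.0595). It was called there at resolution 0.4 (-1.01, adjusted p = 0.025) and without vehicle replicate 3 (-1.11, adjusted p = 0.028). It was also called without WT replicate 2 (-1.05, adjusted p = 0.048) or 4 (-1.09, adjusted p = 0.048). The step from C to D differed by -1.93 between vehicle and WT (exact permutation test, p = 0.016, adjusted p = 0.083). A gene on the other strand overlaps Cdkn1c as well.

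The WT cells richest in Cdkn1c were not granule cells. GABAergic-like cells of WT held 345, 198, 211, 243 and 241 CPM (247 ± 57.7), above every WT granule stage without overlap. Within them the cluster led by Pax2, a gene of young inhibitory interneurons, held 493 CPM. Beside the Node D difference stands that the summed GABAergic markers in Node D-like cells were 321 CPM in WT (214 to 398) and 427 CPM with vehicle (307 to 508). This sum does not measure GABAergic-like cells alone. No tumor cell fell into that class, and the list holds Lhx1, which the study detected across clusters of vehicle-treated tumors. The part of GABAergic-like cells in the difference was not tested. Vascular fibroblast-like cells held 355 ± 192 CPM in WT (92.5 to 629), 197 ± 192 with vehicle (n = 3) and 103 ± 76.3 with vismodegib. Endothelial-like cells went the other way in their means, 80.6 ± 105 CPM in WT (n = 3), 192 ± 72.5 with vehicle (n = 3) and 270 ± 123 with vismodegib (n = 4), with overlapping ranges in WT and vehicle and in vehicle and vismodegib. Oligodendrocyte-like cells held 125 ± 42, 85.6 ± 77.2 and 85.1 ± 46.7 CPM, and microglia-like cells were lowest, at 8.87, 3.57 and 4.76 CPM in the 3 groups.

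**Figure D2:**
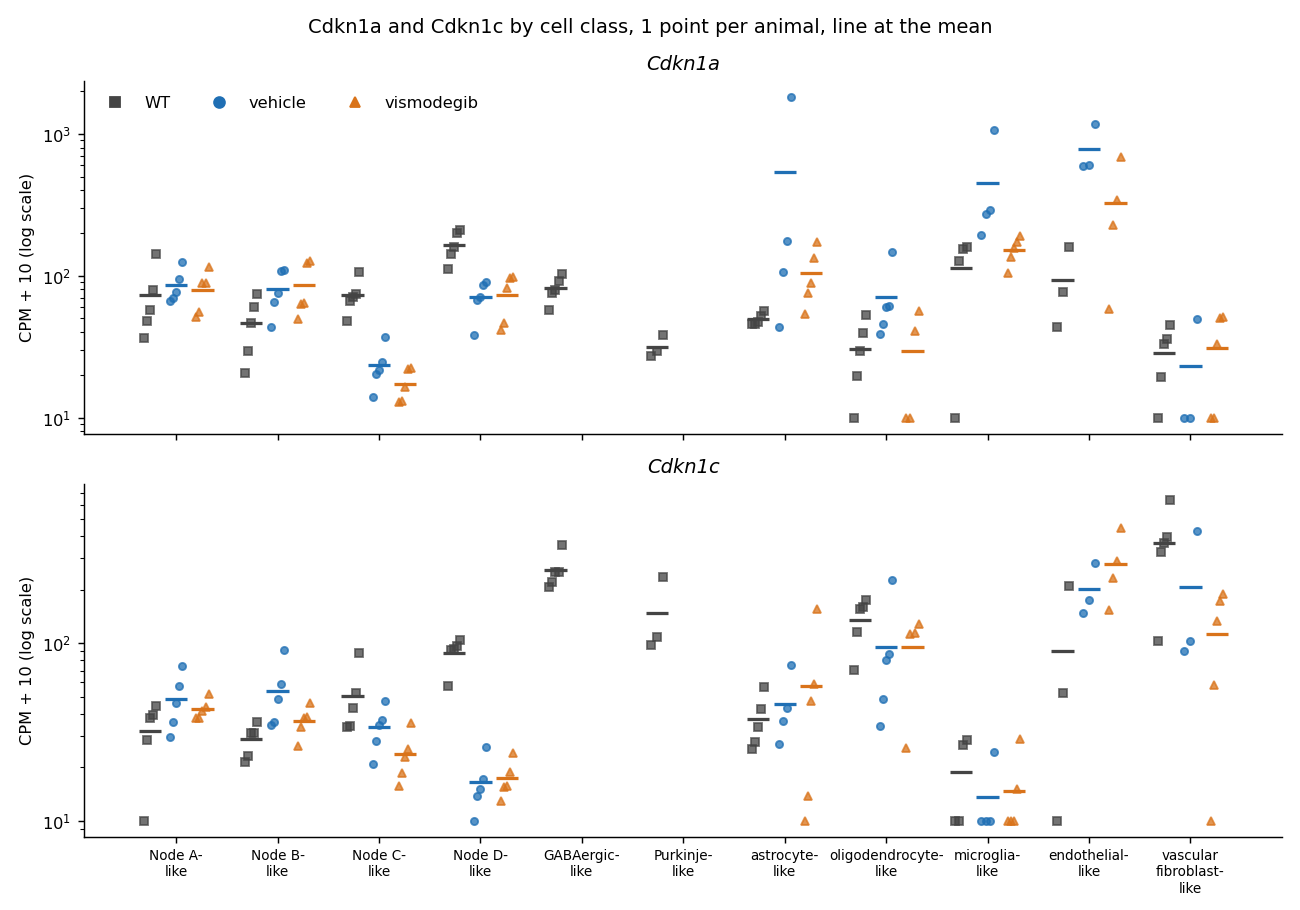
Level of Cdkn1a (top) and Cdkn1c (bottom) in each class (horizontal axis) as CPM + 10 on a log axis, 1 point per animal (3 to 5 per group and class) and a line at the mean. Cdkn1a has its highest mean in endothelial-like cells of vehicle-treated tumors and Cdkn1c has its highest mean in vascular fibroblast-like cells of WT; in Node D-like cells the WT points lie above the tumor points for both genes.

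Of the 4 stages, both Ink4 genes had their highest mean in Node A-like cells in each group. Cdkn2c, which is known to be needed to hold granule progenitors in check, was highest in Node A-like cells, followed by Node B-like cells, with no overlap between these stages in WT (73.2 ± 9.33 against 44.6 ± 8.27 CPM), vehicle (150 ± 24.1 against 67.3 ± 11.6 CPM) or vismodegib (127 ± 19 against 85.1 ± 8.66 CPM; SD, n = 5). From B to C it was lower again in each group, at 0.36, 0.54 and 0.28 times the Node B level. Vehicle-treated tumors held more of it than WT in Node A, Node C and the lineage sum. In Node B it was not called (log2 0.41, SE 0.20, adjusted p = 0.126, overlapping ranges), and in Node D it could not be tested. The Node B difference was called with hemoglobin genes kept (1.15, adjusted p = 0.028) and with no filter (0.61, adjusted p = 0.034). It was also called without WT replicate 3 (0.57, adjusted p = 0.046). In Node A-like cells WT stood at 66.0, 65.6, 87.2, 78.3 and 69.0 CPM and vehicle-treated tumors at 154, 153, 111, 151 and 178 CPM, without overlap (log2 fold change 0.93, SE 0.17, 1.90-fold, adjusted p = 0.000357). Over the whole granule lineage, as 1 sum per animal, WT held 42.7, 37.8, 50.2, 45.9 and 44.3 CPM and vehicle 84.0, 81.3, 66.8, 89.4 and 106 CPM (1.82-fold, log2 0.86, SE 0.17, adjusted p = 0.000619). The lineage difference was 0.14 (adjusted p = 0.51) when all animals were clustered together. In Node C-like cells WT held 9.11, 17.7, 4.72, 22.6 and 26.0 CPM and vehicle 26.8, 33.4, 33.5, 39.3 and 49.7 CPM (log2 1.05, SE 0.34, adjusted p = 0.0236), a call lost without WT replicate 1 (0.83, adjusted p = 0.083), without vehicle replicate 5 (0.91, adjusted p = 0.068), with cells of at least 1000 UMIs (0.95, adjusted p = 0.056) and with hemoglobin genes kept (0.83, adjusted p = 0.12).

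Cdkn2d, also an Ink4 inhibitor, shared the peak in Node A-like cells but little of the difference between groups. In Node A-like cells it stood at 131, 86.6, 91.7, 117 and 113 CPM in WT, 224, 204, 98.1, 159 and 231 CPM with vehicle and 142, 131, 94.0, 195 and 177 CPM with vismodegib. Vehicle replicate 3 lay within the WT range and the other 4 above it. The rise of 0.60 on the log2 scale (SE 0.20, 1.52-fold, adjusted p = 0.0287) was not called without WT replicate 2 (0.53, adjusted p = 0.079), WT replicate 3 (0.58, adjusted p = 0.056), vehicle replicate 2 (0.57, adjusted p = 0.052) or vehicle replicate 5 (0.50, adjusted p = 0.07), or at clustering resolution 1.2 (0.52, adjusted p = 0.051). Node B-like cells held 0.49, 0.27 and 0.32 times the Node A level in WT, vehicle and vismodegib, without overlap. Unlike Cdkn2c, Cdkn2d was higher again later. Node D-like cells were above Node B-like cells in all 5 animals of each group, by 1.51-, 1.89- and 2.00-fold. These ranges were apart with vismodegib and overlapped in WT and vehicle. Node A and Node D overlapped in each group. Within Node A-like tumor cells the cluster led by Ccnb1 and Ube2c, genes of G2 and mitosis, held 254 CPM of Cdkn2d and 179 CPM of Cdkn2c, and among Node B-like tumor clusters the cluster led by Tcf19 and Ccne2, genes of the entry into S phase, held 92.7 and 112 CPM against 25.9 and 48.8 CPM in the cluster led by Hes1. The step of Cdkn2d from A to B differed by -0.82 on the log2(CPM + 10) scale between vehicle and WT and that of Cdkn2c by -0.43 (both exact permutation tests, p = 0.0079, adjusted p = 0.056).

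Btg2 was higher in vehicle-treated tumors than in WT at every stage of the lineage, and at no stage did a vehicle-treated tumor overlap a WT cerebellum. In Node B-like cells WT stood at 72.0, 71.9, 30.2, 33.2 and 29.9 CPM, vehicle at 166, 273, 139, 194 and 165 CPM and vismodegib at 144, 61.7, 97.6, 148 and 126 CPM. Vehicle replicate 2 was the highest, and vismodegib replicate 2 alone fell into the WT range. In Node D-like cells WT stood at 35.7, 28.7, 10.5, 7.92 and 30.9 CPM, vehicle at 117, 183, 106, 149 and 120 CPM and vismodegib at 97.0, 37.2, 90.7, 83.2 and 76.1 CPM. Here all WT animals were below all tumors. Vehicle against WT gave log2 fold changes of 1.58 in Node A (SE 0.23, 3.00-fold, adjusted p = 2.88e-05), 1.83 in Node B (SE 0.25, 3.56-fold, adjusted p = 2.22e-05), 1.60 in Node C (SE 0.28, 3.03-fold, adjusted p = 0.000186), 2.39 in Node D (SE 0.31, 5.25-fold, adjusted p = 3.97e-06) and 1.95 over the lineage (SE 0.24, 3.87-fold, adjusted p = 1.63e-05). The Node B call was lost when tumors and WT were clustered together (1.01, adjusted p = 0.27). The other 4 were kept under every alternative in which Btg2 could be tested.

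The summed level of a list of 9 immediate early genes, Fos, Fosb and Jun among them, is given beside Btg2. Their summed level in the lineage was 676, 627, 483, 388 and 405 CPM in WT, 2756, 3433, 2596, 2810 and 2413 CPM with vehicle and 2759, 1177, 2129, 1606 and 1993 CPM with vismodegib. All tumors were above all WT cerebella, and the lowest vismodegib-treated tumor on this sum, replicate 2, was also the lowest of its group in Btg2 (54.5 CPM over the lineage). In vehicle against WT, genes of the list were called higher in Node A (6 of 6), Node B (7 of 7), Node C (5 of 6), Node D (6 of 6) and the lineage (8 of 8 tested), where 34.3%, 36.6%, 29.9%, 27.1% and 44.3% of all genes tested were called in either direction. The largest changes in the lineage were those of Fosb (log2 4.72, SE 0.33, adjusted p = 1.08e-07), Fos (3.85, SE 0.23, adjusted p = 2.76e-08) and Atf3 (3.25, SE 0.74, adjusted p = 0.00215). Such genes are also known to respond to the dissociation of tissue into cells, a step that used warm papain in all samples. The part of that step in the Btg2 result was not tested. The mean mitochondrial share of UMIs in the 4 stages was 3.2 to 5.5% in WT and 1.9 to 2.4% in vehicle.

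**Figure D3:**
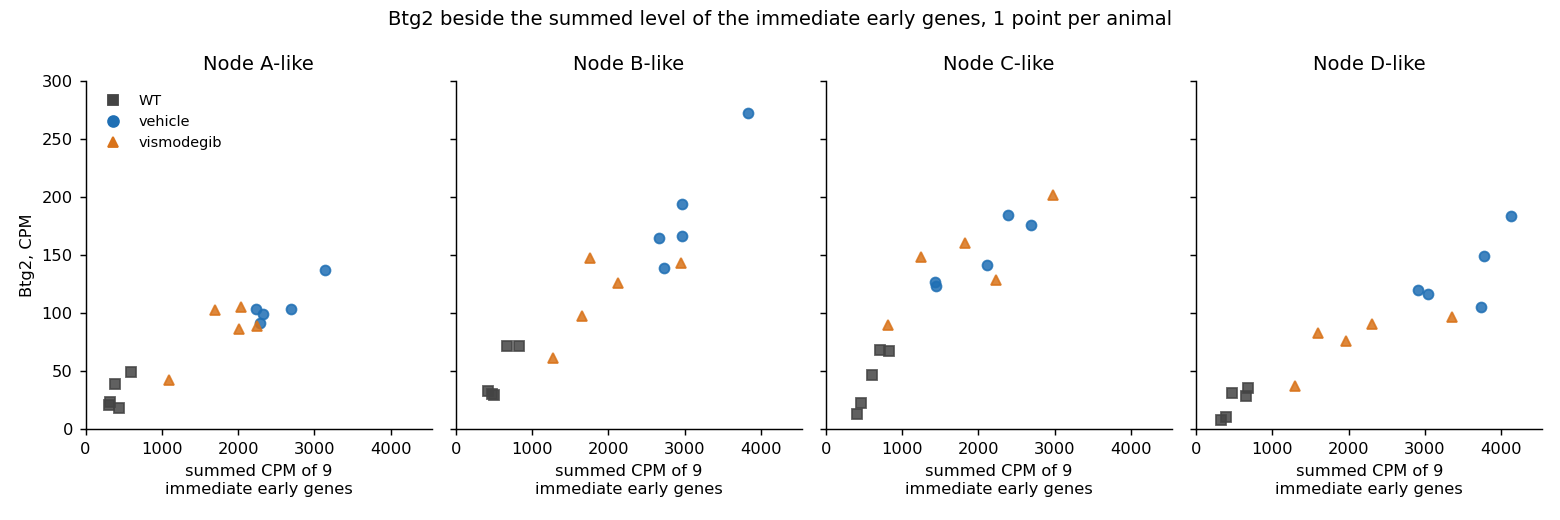
Btg2 level (CPM, vertical axes) against the summed level of 9 immediate early genes (CPM, horizontal axes), 1 point per animal, for each of the 4 stages, colored by group. WT animals sit at the lower left and vehicle-treated tumors at higher values of both measures in each panel, with vismodegib replicate 2 the lowest tumor in Btg2.

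Btg1 differed less. In Node A-like cells it stood at 33.0, 47.2, 45.9, 54.4 and 55.2 CPM in WT, at 124, 87.6, 123, 77.2 and 109 CPM with vehicle and at 73.1, 49.9, 131, 134 and 83.5 CPM with vismodegib. WT and vehicle did not overlap (log2 1.04, SE 0.21, 2.05-fold, adjusted p = 0.0008). With the summed counts thinned to the lowest total of any animal, the Node A calls of Btg1 (1.07, adjusted p = 0.27), Cdkn2c (0.76, adjusted p = 0.53) and Cdkn2d (0.71, adjusted p = 0.42) were lost, on fewer counts and at log2 fold changes of the same direction, and that of Btg2 was kept. In Node B-like cells WT reached from 37.6 to 100 CPM and vehicle from 101 to 139 CPM, with an adjusted p of 0.0514 that did not pass. It was called there with DESeq2 (adjusted p = 0.022), with no filter (0.00089), with the replicate block (0.03) and with at least 1000 UMIs per cell (0.019). The same held at resolution 1.2 (0.042) and without WT replicate 3 (0.0056) or 5 (0.044). Over the lineage it was not called (0.50, SE 0.20, adjusted p = 0.057) but was with DESeq2 (adjusted p = 0.028), among other settings. In Node C and Node D the fold changes were 0.25 and 0.27 on the log2 scale. Along the lineage Btg1 was higher in Node D than in Node A of WT without overlap, by 2.14-fold. No step of Btg1 between neighbouring stages was without overlap in any group.

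Read against all genes, the counts of members called in vehicle against WT were 4 of 7 in Node A (34.3% of all 9320 genes tested were called), 2 of 7 in Node B (36.6%), 3 of 7 in Node C (29.9%), 3 of 6 in Node D (27.1%) and 2 of 7 in the lineage (44.3%). The members' share was above that of all genes in Node A, Node C and Node D and below it in Node B and the lineage, and with 6 or 7 members such shares lie near a background that is high. The median log2 fold change of the members tested was 0.63, 0.61, 0.09, 0.23 and 0.19, against 0.05, 0.05, 0.03, 0.03 and 0.04 over all genes. What set the members apart from each other was the direction: in Node D, Btg2 was higher while Cdkn1a and Cdkn1c were lower.

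**Figure D4:**
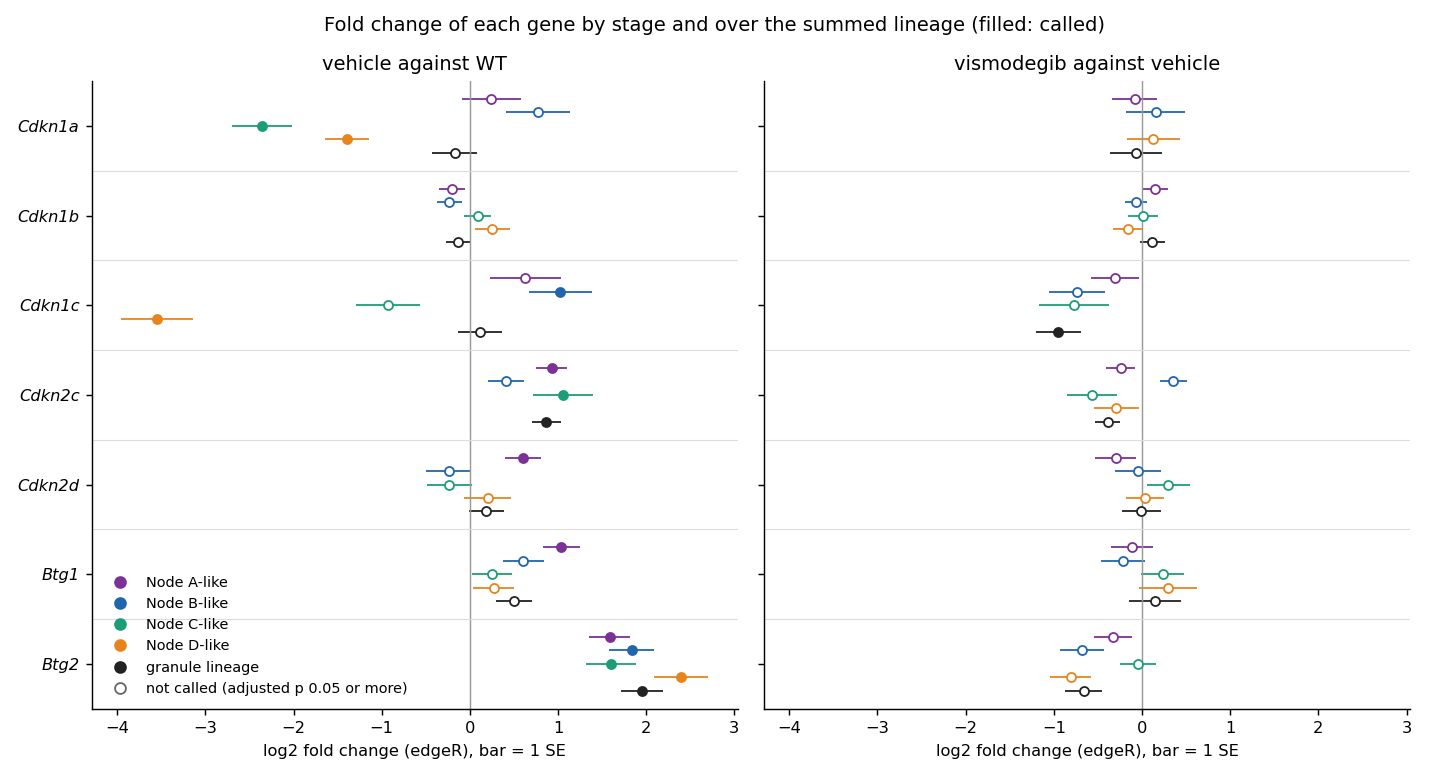
Log2 fold change with 1 SE (edgeR) of each gene for vehicle against WT (left) and vismodegib against vehicle (right), by stage and over the summed lineage; filled points passed an adjusted p of 0.05. On the left Btg2 lies to the right of 0 in all stages and Cdkn1a and Cdkn1c far to the left in Node D; on the right only Cdkn1c in the lineage sum is filled.

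Outside the lineage the members called were Cdkn1a, in endothelial-like and microglia-like cells, and Btg2, in astrocyte-like cells. In endothelial-like cells WT replicates 1, 2 and 4 stood at 149, 33.2 and 66.4 CPM, vehicle replicates 1, 2 and 5 at 594, 582 and 1153 CPM, and vismodegib replicates 2 to 5 at 48.0, 332, 217 and 672 CPM. Every vehicle value was above every WT value (log2 3.13, SE 0.50, 8.76-fold, adjusted p = 0.000157), and the call held without each of the 6 animals in turn (adjusted p at most 0.0131). Over all alternatives run the log2 fold change ranged from 2.68 to 3.80. The class is small, with 10 to 21 cells per animal. Cdkn1a passed the filter on low counts here through its vehicle values alone, so being tested and being higher with vehicle were tied. Leaving out the cell with the most Cdkn1a in each animal gave means of 25.3 CPM in WT (0 to 51.3) and 588 CPM with vehicle (410 to 897). The class held its 10 endothelial markers at 14776 and 16743 CPM in sum.

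In microglia-like cells Cdkn1a stood at 145, 118, 0 and 149 CPM in WT replicates 1 to 4, at 260, 1051, 183 and 278 CPM in vehicle replicates 1, 2, 4 and 5, and at 180, 163, 147, 94.0 and 125 CPM with vismodegib. WT replicate 3 had no UMI of it, and every vehicle value was above every WT value (log2 2.05, SE 0.55, 4.13-fold, adjusted p = 0.0116). Vehicle replicate 2 stood far above the rest. Without it, or without vehicle replicate 5, Cdkn1a did not pass the filter on low counts and could not be tested. Without each other animal in turn it was called, and with DESeq2 it was not (adjusted p = 0.051). The Node B markers, a measure of granule lineage RNA, summed to 343 CPM in WT and 818 CPM in vehicle microglia-like cells, while Cdkn1a in the vehicle granule lineage was 64.9 ± 22.2 CPM, below each vehicle microglia-like value. The part of such RNA in the result was not tested. Leaving out the cell with the most Cdkn1a in each animal gave means of 67.0 CPM in WT (0 to 124) and 302 CPM with vehicle (47.2 to 796), which overlapped. In vehicle replicate 4 a single cell held 11 of 14 UMIs, and the value without it was 47.2 CPM. Of all genes tested, 14% were called in the endothelial-like class and 19.7% in the microglia-like class, and Cdkn1a was the 1 member that could be tested in each. In microglia-like cells too it passed the filter through its vehicle values alone.

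In astrocyte-like cells 1 cell decided the Cdkn1a level of a whole animal. WT stood at 35.7, 37.3, 46.3, 41.6 and 35.4 CPM, vehicle replicates 1, 2, 4 and 5 at 165, 1804, 33.8 and 96.9 CPM, and vismodegib at 65.6, 79.1, 164, 43.3 and 124 CPM. In vehicle replicate 2, 132 of 137 UMIs of Cdkn1a came from 1 of 29 cells, which also held 447 of the 449 UMIs of 5 skeletal muscle genes (Acta1, Myl1, Tnnc2, Sln and Mb, picked after the values were seen). In vismodegib replicate 5 the astrocyte-like cell with the most Cdkn1a, 21 of 71 UMIs, held 589 of 599 UMIs of the same muscle genes. Without the highest cell of each animal the means were 30.2, 65.4 and 42.9 CPM in the 3 groups. Btg2 was called higher with vehicle in astrocyte-like cells (WT 175, 28.0, 61.7, 5.95 and 11.8 CPM; vehicle 297, 250, 110 and 170 CPM; log2 1.36, SE 0.49, adjusted p = 0.0476). The call was lost without WT replicate 2 (1.21, adjusted p = 0.105), 3 (1.31, adjusted p = 0.0804), 4 (1.05, adjusted p = 0.102) or 5 (1.17, adjusted p = 0.085), without vehicle replicate 1 (1.25, adjusted p = 0.0777), 2 (1.21, adjusted p = 0.127) or 5 (1.49, adjusted p = 0.107), and with DESeq2 (1.62, adjusted p = 0.13). Without WT replicate 1 it was 2.75 (adjusted p = 0.000224). The immediate early sum was higher there too, at 2053 CPM in WT and 5705 CPM with vehicle. Of all genes tested, 22.4% were called in astrocyte-like (1 of 3 members tested), 26.8% in oligodendrocyte-like (0 of 2) and 32.7% in vascular fibroblast-like cells (0 of 1).

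The remaining levels outside the granule stages rest on few UMIs. They are given as the mean ± SD over WT, vehicle-treated and vismodegib-treated animals in that order, without a test; the animals behind them numbered 5, 4 and 5 for astrocyte-like, 5, 5 and 4 for oligodendrocyte-like, 4, 4 and 5 for microglia-like, 3, 3 and 4 for endothelial-like and 5, 3 and 5 for vascular fibroblast-like cells, and in WT 5 for GABAergic-like and 3 for Purkinje-like cells. Cdkn1a was 18.7 ± 13.9, 13.3 ± 23 and 21 ± 20.5 CPM in vascular fibroblast-like and 20.3 ± 16.8, 60.6 ± 43.8 and 19.4 ± 23.3 CPM in oligodendrocyte-like cells. In WT it was 71.4 ± 17 CPM in GABAergic-like and 21.6 ± 5.67 CPM in Purkinje-like cells. These lie below the endothelial-like and microglia-like means of the same gene and group. Cdkn1b was 148 ± 88.3, 191 ± 53.9 and 130 ± 39.8 CPM in oligodendrocyte-like and 80.3 ± 31.1, 121 ± 34.6 and 89.9 ± 11.3 CPM in microglia-like cells. It was 61.3 ± 39.5, 122 ± 43.1 and 189 ± 102 CPM in endothelial-like and 114 ± 32, 114 ± 102 and 141 ± 43.1 CPM in vascular fibroblast-like cells. In astrocyte-like cells of the tumor groups it was 268 ± 115 and 156 ± 24.8 CPM, and in WT Purkinje-like cells 63 ± 24.7 CPM. UMIs of Cdkn1b were thus counted in every class, and the part of granule lineage RNA in them was not tested. Cdkn1c was 27.2 ± 12.7, 35.4 ± 21.1 and 47 ± 58.6 CPM in astrocyte-like cells and 137 ± 76 CPM in WT Purkinje-like cells.

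Cdkn2c was 39.1 ± 23.8, 47.7 ± 12.9 and 30.8 ± 29.2 CPM in astrocyte-like and 42 ± 20.7, 63.7 ± 27.5 and 61.7 ± 42.4 CPM in oligodendrocyte-like cells. In the other glial and vascular classes Cdkn2c was 29.9 ± 48.2, 35.7 ± 7.18 and 22 ± 12.8 CPM in microglia-like, 32.9 ± 11.5, 37.3 ± 47.9 and 8.73 ± 17.5 CPM in endothelial-like and 36.9 ± 14.7, 44.8 ± 11.9 and 14.3 ± 19.9 CPM in vascular fibroblast-like cells. In WT it was 43.8 ± 18.2 CPM in GABAergic-like and 1.34 ± 2.31 CPM in Purkinje-like cells. Among WT classes Purkinje-like cells, which are postmitotic neurons, had the lowest Cdkn2c, below every value of the next class. Cdkn2d was 29.2 ± 11.9, 43.7 ± 25.8 and 53.7 ± 19.3 CPM in astrocyte-like and 42.8 ± 29.1, 52.5 ± 31.4 and 34.1 ± 26.1 CPM in oligodendrocyte-like cells. In the other glial and vascular classes Cdkn2d was 31.8 ± 29.1, 25.6 ± 16.5 and 23.9 ± 17.5 CPM in microglia-like, 84 ± 18.3, 29 ± 25.2 and 59.5 ± 35.3 CPM in endothelial-like and 36.3 ± 34.1, 44.9 ± 20.3 and 26.9 ± 31.3 CPM in vascular fibroblast-like cells. In WT it was 72 ± 23.6 CPM in GABAergic-like and 98.1 ± 35.1 CPM in Purkinje-like cells. Unlike Cdkn2c, its WT values in Purkinje-like cells were among the higher of these classes.

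Btg1 was 99.3 ± 40.9, 74.6 ± 38.7 and 58.3 ± 30.3 CPM in astrocyte-like and 43.6 ± 29.9, 36.4 ± 21.5 and 26.6 ± 8.51 CPM in oligodendrocyte-like cells. In the other glial and vascular classes Btg1 was 129 ± 68.2, 96.9 ± 36.7 and 150 ± 62.4 CPM in microglia-like, 106 ± 72, 89.8 ± 47.9 and 102 ± 25.3 CPM in endothelial-like and 69 ± 22.1, 73.8 ± 36.3 and 68.2 ± 59.7 CPM in vascular fibroblast-like cells. In WT it was 126 ± 40.5 CPM in GABAergic-like and 35.6 ± 13.9 CPM in Purkinje-like cells. Its WT means were highest in microglia-like and GABAergic-like cells among these classes, with overlapping ranges. Btg2 was 179 ± 62.3 CPM in astrocyte-like cells with vismodegib and 15.1 ± 16.7, 38.3 ± 23.4 and 3.98 ± 5.14 CPM in oligodendrocyte-like cells. In the other glial and vascular classes Btg2 was 87.4 ± 79.5, 167 ± 55.6 and 216 ± 154 CPM in microglia-like, 98.5 ± 61.9, 158 ± 80.1 and 157 ± 90 CPM in endothelial-like and 77.2 ± 44.7, 181 ± 124 and 99.6 ± 62.1 CPM in vascular fibroblast-like cells. In WT it was 88.5 ± 41.7 CPM in GABAergic-like and 25.1 ± 29.1 CPM in Purkinje-like cells. Oligodendrocyte-like cells had the lowest mean of Btg2 of all classes in each group, and in both tumor groups every value lay below those of the next class.

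The comparison of vismodegib with vehicle asks how blocking Smo for 3 days altered these brakes. The make-up of the lineage changed: Node B-like cells went from 53.6 ± 8.04% to 26.4 ± 10.2% of lineage cells and Node D-like cells from 12.1 ± 3.55% to 44.3 ± 15.0% (exact permutation tests, p = 0.00794 each, the smallest that 5 animals against 5 allow, adjusted p = 0.0159). Node A-like cells went from 18.8 ± 4.69% to 13.9 ± 1.73% (exact permutation test, p = 0.079, adjusted p = 0.106). Within single stages no member was called, 0 of 7 in Node A (2.33% of all genes), 0 of 7 in Node B (2.96%), 0 of 6 in Node C (0.247%) and 0 of 6 in Node D (0.369%). Over the lineage sum 1 of 7 was called (13.2% of all genes), Cdkn1c, which is near the background. The median log2 fold change of the members tested was -0.24, -0.07, -0.02, -0.06 and -0.07 against 0.00, 0.01, 0.00, 0.00 and 0.00 over all genes. At 5 animals a group a p that misses the threshold does not show that the levels were alike; for Cdkn1b in Node B the log2 fold change was -0.07 (SE 0.13). Cdkn1a in Node C and Cdkn1c in Node D held too few UMIs in tumors to be tested.

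Cdkn1c over the lineage stood at 30.7, 61.5, 28.3, 23.8 and 43.3 CPM with vehicle and 21.2, 26.1, 21.3, 14.9 and 15.5 CPM with vismodegib. Vismodegib replicate 2 alone lay within the vehicle range. The fall of 0.95 on the log2 scale (SE 0.26, 1.93-fold, adjusted p = 0.0266) was not called without vehicle replicate 2 (-0.71, adjusted p = 0.066), vehicle replicate 5 (-0.89, adjusted p = 0.066), vismodegib replicate 4 (-0.86, adjusted p = 0.075) or vismodegib replicate 5 (-0.88, adjusted p = 0.07), or with cells of at least 1000 UMIs (-0.88, adjusted p = 0.055). By stage the values were -0.30 in Node A, -0.74 in Node B (adjusted p = 0.27) and -0.78 in Node C (adjusted p = 0.676). When each tumor's stage levels were weighted with the mean stage shares of vehicle-treated tumors, the vismodegib to vehicle ratio of means moved from 0.528 to 0.660 (35.3 ± 14.6 with vehicle, 23.3 ± 4.46 CPM with vismodegib; exact permutation test, p = 0.0873, adjusted p = 0.306 over the 7 members).

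Btg2 was lower with vismodegib by a size that missed the threshold. Over the lineage vehicle stood at 147, 212, 120, 155 and 137 CPM and vismodegib at 117, 54.5, 113, 106 and 95.0 CPM, without overlap (log2 -0.66, SE 0.21, 1.58-fold, adjusted p = 0.0539). It was called with DESeq2 (adjusted p = 0.022), with no filter (adjusted p = 0.016) and with RLE size factors (adjusted p = 0.05, just under the threshold). The same held with a term for a lower or higher serial number in the labels (adjusted p = 0.038) and without vehicle replicate 3 (adjusted p = 0.038). With a term for 2 sets of tumors, which were found in these same data, it was called too (adjusted p = 0.046). In Node D the groups did not overlap either (-0.81, SE 0.23, adjusted p = 0.209). In Node B the value was -0.68 (SE 0.24, adjusted p = 0.178), and in Node C it was -0.04. With the same stage shares given to both groups, vehicle stood at 143, 223, 127, 168 and 142 CPM and vismodegib at 125, 59.5, 114, 132 and 118 CPM, a ratio of 0.685 beside a crude 0.630 (exact permutation test, p = 0.0159, adjusted p = 0.111). The summed immediate early genes went from 2802 to 1933 CPM. Of that list Fosb (-2.54, SE 0.47, adjusted p = 0.0332) and Fos (-1.32, SE 0.27, adjusted p = 0.0425) fell in Node D, and none passed in the other stages.

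For Cdkn2c the crude and standardised ratios of vismodegib to vehicle differed most. Its crude level over the lineage went from 84.0, 81.3, 66.8, 89.4 and 106 CPM with vehicle to 72.5, 65.1, 59.9, 60.3 and 68.6 CPM with vismodegib, a ratio of 0.764 (exact permutation test, p = 0.0238, adjusted p = 0.0556; edgeR log2 -0.39, adjusted p = 0.0875). With the stage shares of vehicle the ratio was 1.04 (72.9 CPM with vehicle, 75.5 CPM with vismodegib, exact permutation test, p = 0.69, adjusted p = 0.952). For every member the crude level weighs stages by their UMIs and the standardised level by their shares of cells. The 2 ratios thus differ in this as well as in the stage shares, and the vehicle mean of Cdkn2c itself went from 85.4 to 72.9 CPM. By stage it was lower by 0.24 in Node A, higher by 0.35 in Node B and lower by 0.57 in Node C and 0.29 in Node D on the log2 scale, none called, so that the standardised ratio sums values of both signs. Tests of whether the effect of vismodegib differed between neighbouring stages gave 0.53 for Cdkn2c from A to B and -0.81 from B to C, 0.42 for Btg1 from B to C, and -0.34 and -0.70 for Btg2 from A to B and from C to D. Each had an adjusted p of 0.100 over 21 exact permutation tests, and none of the 21 passed. The other 4 members had standardised ratios of 0.93 to 1.02.

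**Figure D5:**
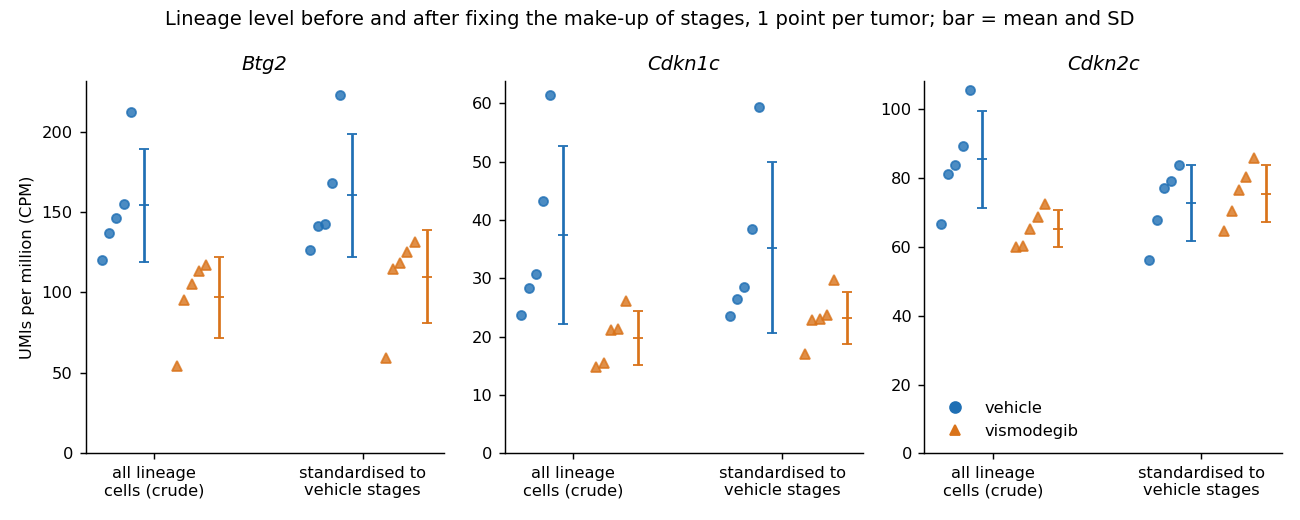
Vismodegib and vehicle levels over the lineage (CPM) for Btg2, Cdkn1c and Cdkn2c, crude and standardised to the stage shares of vehicle-treated tumors, 1 point per tumor with the mean and SD. The gap between groups closes for Cdkn2c, narrows for Cdkn1c and stays near its size for Btg2.

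The clusters within stages shifted as well. Of Node B-like cells, the cluster led by Hes1, with 223 CPM of Btg2 and 57.3 CPM of Cdkn1c, made up 49.3% with vehicle and 31.4% with vismodegib, and the cluster led by Tcf19 and Ccne2, with 103 CPM of Btg2 and 112 CPM of Cdkn2c, 32.8% and 45.6%. Of Node D-like cells, the cluster led by Calb2 and Pcp4, with 74.5 CPM of Btg2, made up 6.36% and 36.6%, and the cluster led by Ephb1 and Dpysl3, with 113 CPM, 38.1% and 13.4%. These levels pool both groups of tumors and carry no test.

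An earlier look at the same tumors parted them into 2 sets, for which the labels name no batch: vehicle 1 and 3 with vismodegib 1 to 3, and vehicle 2, 4 and 5 with vismodegib 4 and 5. Within them the lineage ratio of vismodegib to vehicle was 0.71 and 0.60 for Btg2, 0.78 and 0.35 for Cdkn1c, 0.87 and 0.70 for Cdkn2c, 1.14 and 1.09 for Cdkn1b and 1.02 and 1.08 for Cdkn2d. For Btg1 it was 0.72 and 1.63 and for Cdkn1a 0.71 and 1.27, opposite in direction. In Btg1 a single tumor stood out, vismodegib replicate 4, with 317 CPM in Node D-like cells against 83.1 to 136 CPM in the other 4.

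Outside the lineage no member was called under vismodegib: the astrocyte-like class gave 0 of 3 members tested (1.17% of all genes), the endothelial-like class 0 of 1 (0%), the microglia-like class 0 of 3 (0.108%) and the oligodendrocyte-like class 0 of 2 (4%), and no member could be tested in vascular fibroblast-like cells (3.78%). In endothelial-like cells 39 genes had an unadjusted p under 0.05 in edgeR, and DESeq2 called 0. Cdkn1a was not called in microglia-like cells (-1.66, SE 0.41, adjusted p = 0.132; -0.84, adjusted p = 0.557, without vehicle replicate 2), where the lowest vehicle value, 183 CPM, stood just above the highest vismodegib value, 180 CPM, and the ranges overlapped without the highest cell of each animal (47.2 to 796 and 73.6 to 142 CPM). Its values were lower in endothelial-like cells with overlap (-1.05, SE 0.48, adjusted p = 0.831), and in astrocyte-like cells by -2.52, which became 0.13 without vehicle replicate 2.

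The lists of partners of these genes are read against the same background over the lineage, 44.3% of all genes called in vehicle against WT and 13.2% in vismodegib against vehicle. Of 12 cyclin and kinase genes tested, 4 were called higher and none lower in vehicle against WT, a share below that of all genes: Cdk6, a direct target of Ink4 proteins, rose by 2.24 (SE 0.19, adjusted p = 6.8e-07), Ccnd3 by 1.83 (SE 0.24) and Ccnd1, the SHH-responsive D cyclin, by 1.28 (SE 0.14). By stage, 12, 12, 7 and 4 of them could be tested in vehicle against WT. Node A had 4 higher and 1 lower, Node B 3 and 4, Node C 1 and 2 and Node D 2 and 0. Of all genes tested, 34.3%, 36.6%, 29.9% and 27.1% were called there. Ccnb1 was lower in Node B (-1.62, SE 0.29), and Ccna2 (-1.58, SE 0.29) and Ccnb2 (-1.22, SE 0.40) in Node C. With vismodegib 3 of 12 fell over the lineage and none rose: Ccnd1 (-1.37, SE 0.18, adjusted p = 0.000411), Cdk6 (-0.90, SE 0.17) and Cdk1 (-0.62, SE 0.17). Ccnd1 was also called lower in each of the 4 stages, by 0.89, 0.71, 1.71 and 1.83, while Cdk6 and Cdk1 were called lower in no single stage. In Node B Ccne2 (1.03, SE 0.25) and Ccnd3 (0.85, SE 0.18) rose. Of 11 Rb and E2f genes, E2f1 (1.31, SE 0.28) and Rb1 (0.92, SE 0.23) were called higher in vehicle than in WT over the lineage, and E2f2 rose with vismodegib in Node A (0.89, SE 0.21) and Node B (1.31, SE 0.21).

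Of 10 genes of the turnover and transcription of Cdkn1b, 2 were higher and 4 lower in vehicle than in WT over the lineage, among them Foxo1, a transcription factor that acts on Cdkn1b (1.86, SE 0.38), and Cks2 (-1.55, SE 0.32) and Skp1a (-0.91, SE 0.16), a subunit of the SCF ubiquitin ligase. None passed with vismodegib in any stage or the lineage. Of the p53 response list, 13 of 15 genes could be tested over the lineage. None was higher and 2 were lower in vehicle than in WT, Bax (-1.36, SE 0.16) and Plk2 (-1.16, SE 0.32). Over the lineage with vismodegib Plk2 rose (1.79, SE 0.37) while Trp53 (-0.84, SE 0.18) and Eda2r (-0.80, SE 0.24) fell. None of the list passed in a single stage. The part of the changed stage shares in these lineage values was not tested. The summed list in Node C was 596 CPM in WT and 466 CPM with vehicle and in Node D 488 and 382 CPM, beside the lower Cdkn1a there, although Trp53inp1 of that list was called higher in Node D (1.07, SE 0.36, adjusted p = 0.031). Bax alone went from 257 to 95.4 CPM in Node C and from 221 to 94.3 CPM in Node D, more than the fall of the sum, so that the rest of the list was not lower with vehicle. In endothelial-like cells it was 874 and 774 CPM, beside the higher Cdkn1a. Of 9 deadenylation partners of the Btg proteins, 3 were higher and 1 lower in vehicle than in WT over the lineage, the deadenylase subunits Cnot6 (0.93, SE 0.17) and Cnot6l (0.84, SE 0.19) and the Btg1-binding methyltransferase Prmt1 (-1.26, SE 0.19) among them. None passed with vismodegib. Of other family members, 4 were near 0 in the lineage: Cdkn2a, Cdkn2b, Btg3 and Btg4 had group means of at most 2.26 CPM. Tob1 stood at 103, 95.4 and 82.8 CPM and Cdkn3 at 22.9, 23.4 and 18.4 CPM, neither called over the lineage. In vehicle against WT, Tob1 was called lower in Node A (-0.49, SE 0.18, adjusted p = 0.0389) and Cdkn3 in Node B (-1.20, SE 0.45, adjusted p = 0.0429).

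The genes with the most similar profile over the 40 stage levels of the tumors (Pearson's r over log2 levels, among 4482 genes of at least 50 CPM, points sharing libraries) were Cdk1 (0.963), Cenpa (0.962) and Cks1b (0.960) for Cdkn2c, and Arl6ip1 (0.842), Fzr1 (0.782) and Cep70 (0.780) for Cdkn2d. Arl6ip1 (0.716) and Fzr1 (0.691) were also the nearest to Cdkn2d over the 20 stage levels of WT. For Cdkn1b they were St18 (0.823), Akirin2 (0.789) and Hn1 (0.788), and in WT Actb (0.874), Cdk19 (0.769) and Kdm1a (0.768). For Cdkn1a they were Bex1 (0.826), Acot7 (0.787) and Spop (0.756), and in WT Cpeb4 (0.840) was nearest. Btg1 was nearest to Dnaja1 (0.782), Dnajb6 (0.718) and Myl6 (0.71) in tumors and to Ypel5 (0.866) in WT, and Btg2 to Mrpl34 (0.748), Emc6 (0.747) and Gpx1 (0.725). Cdkn1c lay under the minimum level in both tissues, and Cdkn2c and Btg2 in WT.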

How the data were processed

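Per the labels and the study's methods, the authors dissociated cerebella and tumors with papain, ran Drop-seq (protocol V3.1), added human HEK 293 cells to the tumor libraries only, kept barcodes with over 90% mouse transcripts, aligned reads to mm10 (STAR) and deposited raw UMI counts per gene and barcode, 1 table per animal; the submitters' processing notes list bcl2fastq 2.18 and Seurat 2.3.0. The annotation version is not named in the labels or methods. No per-sample column was left unused.

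Here a cell had to hold 500 UMIs or more from 500 genes or more, and in UMIs, genes and mitochondrial share it could exceed its animal's median by no more than 5 SD. No doublet caller was run. Tumors and WT were clustered separately after the study's rules (963 and 1425 variable genes, 7 and 11 components, Louvain resolution 0.8), without the 7 genes, their relatives and, settled after seeing the clusters, hemoglobin genes. Clusters were named by fixed markers, and vascular clusters were divided by clustering again. UMIs were summed per animal and class (at least 10 cells, at least 3 animals per group) and tested with the edgeR 4.0.16 quasi-likelihood test (R 4.3.3, TMM, filterByExpr, Benjamini-Hochberg over all genes of the class); DESeq2 1.42.0 and other settings were alternatives. Levels are CPM, and permutation tests are exact and two-sided on log2(CPM + 10) for stage steps and on CPM or shares otherwise. The test was checked on simulated data. Total UMIs per animal were 2310474 to 5952919 in WT, 4307404 to 17708677 with vehicle and 2601001 to 10922460 with vismodegib. Python 3.11.15 with scipy 1.17.1, scikit-learn 1.9.0 and python-igraph 0.11.9 was used. The rule for named genes takes all 7 genes in every class, given in the text as values per animal, means, ranges or, for some granule stages, in the figures only; of the pathway lists, up to 3 genes past the threshold with the largest change are named per class, and as most alike the 3 genes with the highest correlation. The members, lists and tests were chosen with earlier results of these data known, and the 5 muscle genes and the 2 sets of tumors came from looking at the data.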

Additional observations from a re-analysis of the deposited data

Results flagged for a closer look

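Of 196 levels in groups of 4 or 5 animals, 14 had a highest or lowest animal standing apart from the others by Dixon's criterion, which chance alone meets about 1 time in 20. In the granule stages these were Btg2 in Node A-like cells of vehicle replicate 2 (137 CPM, others 91.6 to 104), Cdkn1c in Node D-like cells of WT replicate 4 (47.5 CPM, others 81.6 to 94.2) and Btg1 in Node D-like cells of vismodegib replicate 4 (317 CPM, others 83.1 to 136). In astrocyte-like cells they were Cdkn1a of vehicle replicate 2 (1804 CPM, others 33.8 to 165), where 132 of 137 UMIs lay in 1 cell with skeletal muscle transcripts, and Btg1 of vehicle replicate 1 (132 CPM on 4 UMIs, others 50.8 to 62.8). In microglia-like cells they were Cdkn1a of vehicle replicate 2 (1051 CPM on 109 UMIs, others 183 to 278), of which 80 UMIs lay in 3 of 36 cells, Cdkn1c of vehicle replicate 5 (14.3 CPM on 4 UMIs, others 0), Cdkn2c of vehicle replicate 5 (25.0 CPM on 7 UMIs, others 38.6 to 40.1), Cdkn1c of vismodegib replicate 4 (18.8 CPM on 6 UMIs, others 0 to 5.00) and Cdkn2c of vismodegib replicate 3 (44.1 CPM on 3 UMIs, others 12.5 to 21.2). In oligodendrocyte-like cells vehicle replicate 1 stood above its group in both Cdkn1a (137 CPM on 17 UMIs, others 29.0 to 50.8) and Cdkn1c (218 CPM on 27 UMIs, others 24.0 to 77.3), and vismodegib replicate 1 below it in Cdkn1c (15.7 CPM on 1 UMI, others 103 to 118). In endothelial-like cells Cdkn2c had UMIs in vismodegib replicate 5 alone (34.9 CPM on 4 UMIs, others 0). The sources of these differences were not tested.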

How the results depend on the processing

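Under the alternatives no called difference of the 7 genes reversed. Of 799 alternative values of member fold changes in vehicle against WT, 737 stayed on their side of the threshold, 34 gained a call and 28 lost one. Of 862 in vismodegib against vehicle, 846 stayed on their side, 11 gained a call and 5 lost one. The gains were Btg2 over the lineage in 6 settings and Cdkn2c over the lineage without vehicle replicate 3 (edgeR adjusted p = 0.031). With no filter they were Btg2 in Node B (0.04) and Node D (0.033) and Cdkn1a in astrocyte-like (1.48e-08) and microglia-like cells (0.000215). Over the fold changes and the permutation tests together, 131 uncalled values changed sign. They are counted among those that stayed on their side. Tests of standardised levels and of differences between stages stayed on their side of the threshold in all alternatives run, and of 875 alternative values of single levels 35 moved by more than the SD over animals. The share of Node A-like cells fell past the threshold at resolution 1.2 (-6.33 percentage points), and ranged from -6.94 to -4.10 points when each tumor was left out. Counts of all genes called moved by more than 1.5 times as follows, in the order Node A, B, C, D, and the causes were not tested. In vehicle against WT, sums thinned to the lowest total, which hold fewer counts, gave 224, 362, 689 and 164 genes, 2179 in the lineage, 7 in astrocyte-like, 47 in endothelial-like, 27 in microglia-like, 275 in oligodendrocyte-like and 65 in vascular fibroblast-like cells. No filter on low counts gave 5121, 5903, 3732 and 2743 genes in the stages, and 975 in astrocyte-like, 335 in microglia-like and 1304 in oligodendrocyte-like cells. Hemoglobin genes kept gave 2232 in Node B and 1150 in Node D, and joint clustering 305 in Node B. In vismodegib against vehicle, DESeq2 called 379, 565, 50 and 73 genes in the stages, 60 in astrocyte-like and 12 in microglia-like cells. No filter gave 402 in Node A, 106 in Node C, 158 in Node D, 112 in astrocyte-like, 4 in endothelial-like, 41 in microglia-like and 281 in oligodendrocyte-like cells. A term for the 2 sets gave 421, 656, 64 and 98 in the stages, 4 in microglia-like, 193 in oligodendrocyte-like and 12 in vascular fibroblast-like cells. A term for a lower or higher serial number in the labels gave 506, 55 and 59 in Node B, C and D and 6 in microglia-like cells. In Node C and Node D, resolution 0.4 gave 54 and 2, resolution 1.2 gave 147 and 0, joint clustering 131 and 0, and hemoglobin genes kept 396 and 0. The replicate numbers of the labels did not pair the tumors throughout (same-numbered animals correlated at -0.33 to 0.54). Vehicle replicate 4 was most like vismodegib replicate 4 in each stage and the lineage, and replicate 5 like replicate 5 in each stage. Vehicle replicates 1, 2 and 3 were most like other numbers. The methods name the injected mice as littermates, without saying which shared a litter. With the replicate block 40 genes were called in Node C, 48 in Node D, 3 in endothelial-like and 1 in microglia-like cells for vismodegib. For vehicle against WT it gave 114 in microglia-like cells. Leaving out each animal in turn, vismodegib against vehicle gave 174 to 271 genes in Node A, 190 to 302 in Node B, 13 to 35 in Node C, 2 to 39 in Node D, 1153 to 1916 in the lineage, 0 to 67 in astrocyte-like, 0 to 2 in endothelial-like, 0 to 10 in microglia-like, 30 to 264 in oligodendrocyte-like and 3 to 21 in vascular fibroblast-like cells. Vehicle against WT gave 2849 to 3486, 3253 to 3925, 1801 to 2482 and 1453 to 1754 in the stages, 4871 to 5639 in the lineage, 418 to 736 in astrocyte-like, 65 to 140 in endothelial-like, 152 to 210 in microglia-like, 583 to 661 in oligodendrocyte-like and 241 to 380 in vascular fibroblast-like cells. The alternatives added after seeing the data were hemoglobin genes kept, no Gabra6-led cluster, vehicle and WT stage steps, and single animals left out of glial classes. Depth limits the smallest levels most, since 1 UMI is a large part of a level in the small classes.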
